A study of Caenorhabditis elegans with 2 samples.

Results

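The dod genes, named as downstream of DAF-16, are a set of Caenorhabditis elegans genes whose transcripts respond to insulin signalling. The 9 genes dod-3, dod-6, dod-17, dod-19, dod-20, dod-21, dod-22, dod-23 and dod-24 were listed by name, out of 19973 protein-coding genes on the 6 nuclear chromosomes. No rule on measured values was used, but earlier results of these data were known when the list was made. The gene dod-18 was not in the list and is described apart. Binding of PQM-1 near them was measured by chromatin immunoprecipitation and sequencing (ChIP-seq), which maps where a protein sits on DNA. Both samples are biological replicates of 1 group, late embryos of strain OP201 taken 2 h after synchronization by egg bleaching. The strain, unc-119(tm4063) III; wgIs201, carries an integrated transgene for PQM-1 tagged at its C terminus with GFP and FLAG, and whole hermaphrodite embryos were sonicated and precipitated with an anti-GFP antibody. The tagged protein is thus made from a transgene in 1 strain and all tissues are mixed. Control libraries were not analysed here, and with 1 group nothing could be tested between conditions.

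DAF-16 is the FOXO transcription factor that enters the nucleus when signalling through the insulin receptor DAF-2 is low. Genes whose transcripts are raised in that state are known as class I and those that are lowered as class II. dod-3 is counted with the first class, and dod-17, dod-22 and dod-24 with the second. PQM-1 is a zinc finger factor that binds the DAF-16 associated element TGATAAG, which is common in promoters of class II genes, and it leaves the nucleus when DAF-16 enters. In the RefSeq annotation dod-17, dod-21, dod-22 and dod-24 encode proteins with a CUB-like domain, a family of secreted proteins many of which are induced in the intestine by pathogens. RefSeq gives dod-6 a ShKT domain, named after a sea anemone toxin. For dod-19 it names an IgGFc-binding domain in 1 product and a GH131_N domain in another. For dod-3, dod-20 and dod-23 it names no domain.

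The element was found in the promoters of most of these genes. A promoter was taken as the 2000 bp before any transcript start of the gene, and TGATAAG was searched on both strands. It was present 13 times in the promoters of 8 of the 9 genes, all except dod-17. Of all protein-coding genes 36.9% had at least 1. dod-20 had 3, dod-6, dod-21 and dod-22 had 2 each, and dod-3, dod-19, dod-23 and dod-24 had 1 each. Thus 4 of 9 genes had 2 or more, against 10.6% of all genes. The element is already known to be common at class II genes, with which dod-17, dod-22 and dod-24 are counted. These shares are therefore not a separate result of these data. The shorter GATAAG, which every TGATAAG contains, occurred 16 times and in all 9 promoters, 1 of them in that of dod-17, against 60.3% of all promoters. The FOXO site GTAAACA, to which DAF-16 itself binds, occurred on either strand in 2 of the 9 promoters (22.2%), those of dod-3 and dod-22 with 2 copies each, close to the 25.7% of all genes.

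Of the 13 elements 6 lay within 200 bp of a transcript start, and the median distance was 257 bp from the centre of the element. The element of dod-22 nearest to a start spans it: its centre is 2 bp upstream of the longer transcript. Those of dod-23 and dod-24 lay farther out, each 897 bp upstream. The outermost was the first of dod-6, 1195 bp upstream. In 9 cases TGATAAG read along the gene's own strand and in 4 on the opposite one. No element lay inside another protein-coding gene, although the 2000 bp of 8 promoters ran into a neighbour. The 3 elements of dod-21 and dod-24 also lay in promoters of neighbouring genes, among them the CUB-like genes cld-1 and dct-19, so they cannot be assigned to 1 gene.

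The 4 promoter stretches below show the elements of dod-19 and dod-20, the strongest regions of the set, of dod-3, and of dod-21, which had no region in the pooled list. They are read 5′ to 3′ along the gene's strand from the reference genome WBcel235 (ce11) and carry the element in capitals, as CTTATCA where it is on the opposite strand.
dod-19, chrV:414760-414929, minus strand: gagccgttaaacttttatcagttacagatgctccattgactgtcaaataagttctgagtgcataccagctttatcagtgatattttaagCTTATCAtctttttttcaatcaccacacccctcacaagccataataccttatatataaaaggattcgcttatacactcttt
dod-20, chrV:422093-422362, plus strand: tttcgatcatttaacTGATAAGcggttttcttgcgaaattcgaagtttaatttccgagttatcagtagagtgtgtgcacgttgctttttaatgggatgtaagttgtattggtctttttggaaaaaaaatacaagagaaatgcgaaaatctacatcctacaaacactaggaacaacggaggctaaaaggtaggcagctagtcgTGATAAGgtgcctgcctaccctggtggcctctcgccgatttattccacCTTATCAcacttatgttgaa
dod-3, chrV:2731099-2731298, minus strand: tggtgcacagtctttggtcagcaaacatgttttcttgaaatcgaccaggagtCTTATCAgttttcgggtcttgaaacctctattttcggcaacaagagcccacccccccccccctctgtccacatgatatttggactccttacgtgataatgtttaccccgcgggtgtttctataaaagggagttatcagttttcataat
dod-21, chrIV:12936458-12936707, plus strand: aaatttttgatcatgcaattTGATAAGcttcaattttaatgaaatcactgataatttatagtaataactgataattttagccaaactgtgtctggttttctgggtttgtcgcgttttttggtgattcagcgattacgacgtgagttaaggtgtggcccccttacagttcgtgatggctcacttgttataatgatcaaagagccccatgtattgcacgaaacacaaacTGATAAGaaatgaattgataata

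The stretch of dod-19 runs to the base before the most upstream transcript start, as does that of dod-3. That of dod-20 ends 71 bp and that of dod-21 31 bp before the start.

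Single elements of the 4 remaining genes are shown with 11 bases to each side, written along the strand on which TGATAAG reads. Those of dod-6 and dod-23 lay under a region of 1 list, whereas those of dod-22 and dod-24 lay under none.
dod-6, chrIII:10197043-10197071, minus strand: tgttctccggtTGATAAGatatttttctg
dod-23, chrII:8400047-8400075, minus strand: atgatttctatTGATAAGagcggaagaaa
dod-22, chrIV:12965358-12965386, plus strand: gatttcatagtTGATAAGaagcttcaacc
dod-24, chrIV:12942237-12942265, minus strand: tcaacacaaacTGATAAGtgttttctggg

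Regions were then assigned to genes. The authors called regions for each replicate and for the pooled replicates, in lists that hold both peaks and background by design, and a separate reproducible list of 669 peaks, which equals the strongest 669 of the pooled list. A region was counted for a gene when its summit, the position of highest signal, lay in the gene body or in the promoter. Ranks follow the authors' signal value, with 1 the strongest of 27694 pooled regions, 28996 of replicate 1 and 23228 of replicate 2. A region absent from a list was not called there, which does not show that nothing is bound. The signal value has no common scale between lists, and the q-value, a false discovery rate, was read from the standard layout of such lists.

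None of the 9 genes had a peak of the reproducible list, against 4.2% of all genes. None had a pooled region with a q-value of at most 0.01 either, against 7.21%. In the relaxed pooled list 5 of 9 genes had a region, against 65.8% of all genes. The count was also 5 in windows without the whole gene body, where all genes had a lower share, 50.3% with 2000 bp upstream and 41.2% from 1000 bp upstream to 200 bp downstream. The dod genes (55.6%) thus stood below all genes in the first window and above them in the others. The corresponding counts were 5 of 9 in the list of replicate 1, against 68.7%, and 3 of 9 in that of replicate 2, against 62.1%. Both replicates had a region at dod-19 and dod-20, 2 of 9 genes, against 52.1%. The windows searched were shorter than usual, with a median of 3251 bp against 4027 bp over all genes. Per kb of window the pooled list had 0.287 regions at the dod genes and 0.297 over all genes.

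Regions were next counted by whether they lay over the element. A pooled region covered a promoter TGATAAG at 4 of the 9 genes, dod-3, dod-19, dod-20 and dod-23, against 8.71% of all genes. Among genes that have the element at all, these were 4 of 8, against 23.6%. Counted by element, 6 of 13 were under a pooled region, against 21.2% of the 8532 elements in all promoters. In replicate 1 it was 7 of 13 against 19.3%, and in replicate 2 it was 5 of 13 against 18.95%. Regions of both replicates covered an element at dod-19 and dod-20, 2 of 9 genes, against 4.41%. All 3 elements of dod-20 share its regions and are not independent, and the set was too small for a test. The strongest pooled region over an element had a q-value of 0.80 at dod-3, 0.096 at dod-19, 0.45 at dod-20 and 0.92 at dod-23. In replicate 1 the covered elements other than that of dod-19 lay under regions with q-values from 0.82 to 0.94. With pooled regions at q-values up to 0.05 alone, 0 of 9 genes had one over an element, against 1.61% of all genes.

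**Figure D1:**
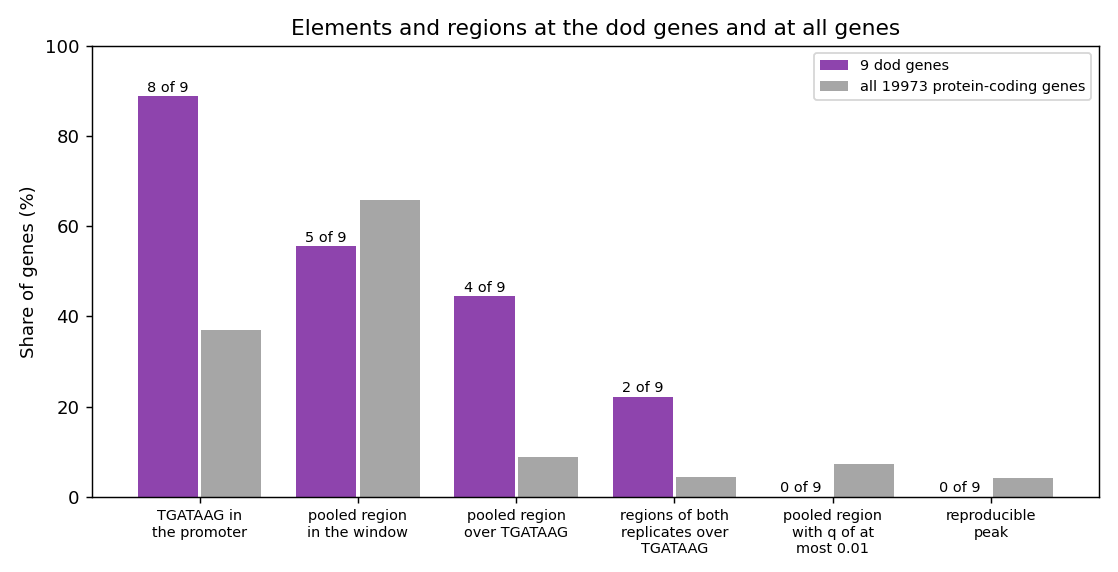
Share of genes in percent (bars from 0) for the 9 dod genes, with their counts, and for all 19973 protein-coding genes under 6 rules. The dod genes stand above all genes for the element, with 8 of 9 against 36.9%. They also do for a pooled region over it, with 4 of 9 against 8.71%. No dod gene has a region whose q-value is 0.01 or lower, against 7.21% of all genes. None has a reproducible peak, against 4.2%. With shares this low over all genes, none of 9 does not set the dod genes apart.

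dod-19 had the strongest region of the set. It lay on chromosome V from 414648 to 415077 with its summit at 414863, 104 bp upstream of the longest transcript's start and outside any protein-coding gene. Its pooled signal was 47.8, at rank 3003 (10.8% of the list) with a q-value of 0.096. This is below the weakest signal of the reproducible list, 82.03, and above the median of the pooled list, 27.5. Both replicates listed a region with the same start, end and summit. It ranked 1925 in replicate 1 (signal 27.5, q = 0.033) and 16044 in replicate 2 (signal 16.08, q = 0.84), so it stood at 6.64% of the first list and at 69.1% of the second. The element, shown in the dod-19 stretch above, was 23 bp from the summit.

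A second pooled region of dod-19 had its summit 478 bp upstream at rank 9998 (q = 0.60) and held no TGATAAG. It had no counterpart in replicate 1, while in replicate 2 the strongest region of the gene lay there, 596 bp upstream at rank 5527 (signal 23.8, q = 0.35). The replicates thus differed in which of 2 places before dod-19 was the stronger. One more pooled region, in an intron 631 bp after the start, ranked 24324.

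dod-20 begins 7.67 kb from dod-19 on the same chromosome and reads in the other direction. Its strongest pooled region lay on V from 422041 to 422470 with the summit at 422256, 177 bp upstream of the start, at rank 7241 (26.1% of the list, signal 35.2, q = 0.45). It covered all 3 elements of the promoter, the nearest 39 bp from the summit. Replicate 1 listed the same interval at rank 27106 (signal 10.5, q = 0.94), among the weakest of its regions. Replicate 2 listed a region shifted upstream, with the summit 243 bp from the start, as its strongest at this gene, at rank 4940 (signal 24.6, q = 0.31), and a second one 12 bp before the start at rank 18187. Regions over the elements were therefore listed in both replicates but were weak in replicate 1.

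The strongest region of replicate 1 at dod-20 was elsewhere, with its summit 1176 bp upstream at rank 4275 (signal 21.8, q = 0.19). That summit lies in a coding exon of the neighbouring gene Y39D8A.1 and holds no element, and the pooled list had it at rank 20723. A region in an intron of dod-20 was listed in the pooled list, 358 bp after the start at rank 15373, and in replicate 1, 360 bp after the start at rank 11485.

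dod-3 had a region in the pooled list and in replicate 1 but none in replicate 2. The pooled summit lay on V at 2731228, 130 bp upstream of the start and 12 bp from the element, at rank 16595 (signal 25.4, q = 0.80). The summit in replicate 1 was 155 bp upstream and 7 bp from the element, on its other side, at rank 19223 (signal 12.59, q = 0.82). The region thus stood at 59.9% of the pooled list and at 66.3% of that of replicate 1, below the median of each.

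dod-17 and dod-23 had a region in the pooled list alone. That of dod-17, the only gene of the set without TGATAAG, had its summit 31 bp upstream of the start on IV at 12976272, rank 19813 (71.5% of the list, signal 23.3, q = 0.87). That of dod-23 lay 720 bp upstream on II at 8399884, rank 23533 (signal 21.4, q = 0.92), with the element 174 bp from the summit near the edge of the region. These are weak entries, with q-values near 1, that neither replicate's list held.

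The other genes appeared in 1 replicate at most. dod-6 had a region in replicate 2 alone, 842 bp upstream on III at rank 6869 (29.6% of the list, signal 22.1, q = 0.46), which held the inner of its 2 elements 180 bp from the summit. dod-21 had one in replicate 1 alone, with the summit 58 bp upstream of the start and 5 bp from an element, at rank 21248 (signal 11.96, q = 0.86). dod-22 had one in replicate 1 alone, 865 bp upstream at rank 22114 (signal 11.7, q = 0.87), in a coding exon of F55G11.8 and away from both of its elements. dod-24 had no region in any of the 3 lists.

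**Figure D2:**
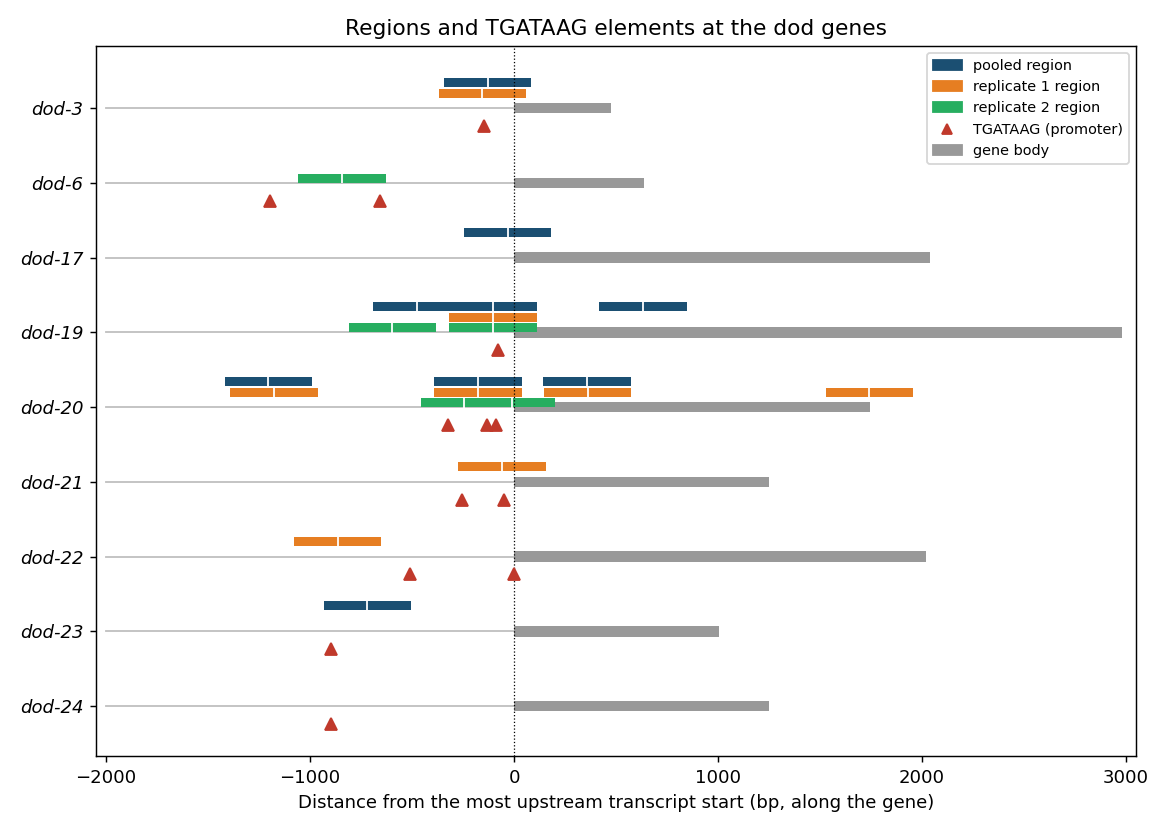
Regions of the pooled list and of each replicate (coloured bars, white tick at the summit), TGATAAG elements of the promoter (triangles) and gene bodies (grey) for the 9 dod genes, by distance in bp along the gene from the most upstream transcript start. Only dod-19 and dod-20 have regions of all 3 lists over an element, and dod-24 has an element 897 bp upstream and no region. The 2 upstream pooled regions of dod-19 and both replicate 2 regions of dod-20 overlap and run together in the drawing.

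**Figure D3:**
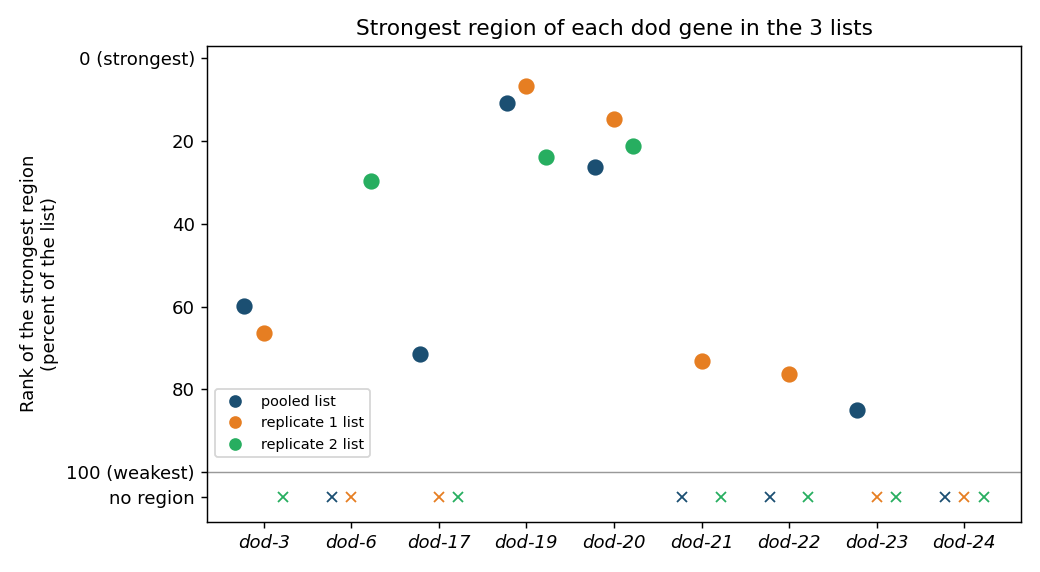
Rank of the strongest region of each dod gene as percent of the list's length (vertical axis, 0 the strongest), in the pooled list and in each replicate's list, with crosses where no region was listed. dod-19 and dod-20 lie at 26.1% of the list or nearer the top in every list, and dod-24 has no point.

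Over the 5 genes with a pooled region the median rank of the strongest one was 16595, against 8399.5 over the 13136 protein-coding genes that had one. In replicate 1 the median over 5 genes was 19223, against 9168. In replicate 2 it was 5527 over 3 genes, against 7630. The dod genes with a region thus lay on the weaker side of the genome's median in replicate 1 and on the stronger side in replicate 2. In replicate 2 only 3 of 9 had a region, against 62.1% of all genes, so its median does not describe the whole set. The pooled list, on the weaker side, derives from both replicates and is not a separate result. The windows of the dod genes were also shorter than those of all genes, as given above. In the order of all genes by strongest pooled region, dod-19 came after 15.1% of genes and dod-20 after 29.7%. dod-3 came after 51.1%, dod-17 after 56.0% and dod-23 after 61.3%.

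**Figure D4:**
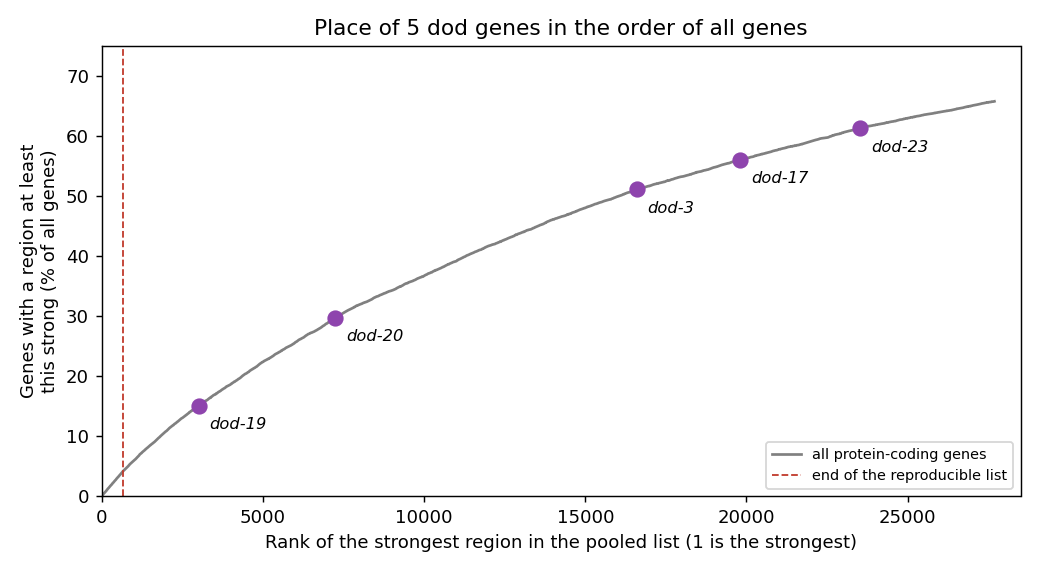
Share of all protein-coding genes (percent) with a pooled region at least as strong as a given rank (grey line), with the 5 dod genes that have a pooled region as points and the end of the reproducible list at rank 669 as a dashed line. dod-19, at rank 3003 and after 15.1% of genes, is the dod gene nearest to the reproducible list, and dod-23 is the farthest at rank 23533.

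The 4 CUB-like genes of the set are neighbours, and few regions were listed among them. dod-21, dod-24, dod-22 and dod-17 lie in this order within 41.6 kb on chromosome IV, from 12936738 to 12978343, a stretch with 13 protein-coding genes of which 9 encode CUB-like proteins. It held 4 pooled summits, 4 of replicate 1 and 2 of replicate 2, that is 0.0961, 0.0961 and 0.0481 per kb, against 0.276, 0.289 and 0.232 over the genome. The stretch begins at the start of dod-21, so the replicate 1 summit 58 bp upstream of that start is not counted. None of the 4 CUB-like dod genes had a pooled region over an element, although 3 of them have elements, whereas 4 of the 5 remaining genes did. Among all genes with the element 23.6% had one, so none of 3 does not stand apart from the genome. In replicate 1 a region at rank 21248 covered both elements of dod-21. The contrast between the CUB-like and the remaining genes was noticed in the data, was not tested and rests on neighbouring genes.

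The rest of the CUB-like family, 44 further genes by their RefSeq product, was also rich in the element. It was present in 34 of their promoters (77.3%), against 36.9% over all genes. There were 42 copies once those shared by neighbours are counted once. A pooled region lay at 20 of the 44 (45.5%), against 65.8% of all genes, and over an element at 11 (25.0%), against 8.71%. Among genes that have the element these were 11 of 34, against 23.6%. The family had no peak of the reproducible list, against 4.2% of all genes. A pooled region with a q-value of at most 0.01 lay at 2 of the 44, against 7.21% of all genes. These were F35E12.9 at rank 792 (signal 76.9, q = 0.0069) and C29F3.7 at rank 793 (signal 76.9, q = 0.0069), each over an element. They were followed by C32H11.4 at rank 1903 and ZK896.5 at rank 2069. Several family members were thus nearer to the top of the list than the 4 that carry a dod name, of which dod-17 alone had a pooled region.

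Other genes of the insulin response had regions about as frequently as the genome. Of 21 class I genes 14 had a pooled region (66.7%), against 65.8% of all genes. TGATAAG was in the promoter of 11 (52.4%), against 36.9%, and 3 (14.3%) had a region over it, against 8.71%. Among genes that have the element these were 3 of 11, against 23.6%. The strongest regions of the class I genes were those of the metallothionein gene mtl-1 at rank 1259 (signal 64.5, q = 0.0107) and the glyoxylate cycle gene icl-1 at rank 3040. The glyceraldehyde phosphate dehydrogenase gene gpd-2 followed at rank 3616 and lea-1, which encodes a desiccation protein, at rank 4855. Of 8 further class II genes 6 (75%) had a pooled region, against 65.8% of all genes. The median window was 7012 bp at these genes and 3247 bp at the class I genes, against 4027 bp over all genes. TGATAAG was in the promoter of 4 class II genes (50%), against 36.9%, and 1 (12.5%) had a region over it, against 8.71%. This was the gut esterase gene ges-1 at rank 5699 (signal 38.3, q = 0.33). It was followed by the nuclease gene nuc-1 at rank 7469 and the yolk protein genes vit-2 and vit-5 at ranks 8362 and 14576. No gene of either list had a peak of the reproducible list, against 4.2% of all genes. None had a pooled region with a q-value of at most 0.01, against 7.21%. One more gene with a dod name, dod-18, has its strongest pooled region in an intron at rank 6844 (signal 35.8, q = 0.43), within an intron of C54G4.7 too, and its 1 promoter TGATAAG was under no region.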

How the data were processed

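ChIP-seq lists from 2 biological replicates and from their pool were used in build ce11. Per the labels and the deposited README text, regions were called for each replicate and for the pool as relaxed input to an irreproducible discovery rate step, which gave the reproducible list. The aligner, peak caller, versions and thresholds are not stated in the labels or README. The deposited signal of a region is the authors' peak value, and column 9 was read as a −log10 q-value from the narrowPeak layout of the deposited lists, since nothing else names it. Each q-value printed rests on that reading. Read depth is unknown, so no interval is given. Lists in build ce10 were not used, since the annotation (Ensembl release 115) and genome (RefSeq, WBcel235) are ce11.

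Regions were ordered by signal, q-value and position. Gene windows were the gene body and 2000 bp before any transcript start. An element was under a region when wholly inside it. Members are set beside all 19973 protein-coding genes, with no test. Members and gene lists were chosen with earlier results of these data known. Named genes are the 9 members, dod-18, genes sharing a member's strongest pooled region (none did) and up to 4 genes with the strongest pooled regions of each list. Of the class I symbols hsp-16.11 matched no gene and hsp-16.1 names 2. Of the RefSeq CUB-like genes mbug-1 matched none. Alternatives varied windows, assignment, thresholds, the element and the replicates. Functions were tested on simulated data. Python 3.11.15, numpy 2.4.6, pandas 2.3.3 and matplotlib 3.10.9 were used.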

Additional observations from a re-analysis of the deposited data

How the results depend on the processing

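The count of dod genes with a region was 5 in the pooled list, 3 to 5 in the list of 1 replicate alone and 5 under the other windows and under assignment by overlap. The share of all genes moved more: it was 58.9% with 1000 bp upstream plus the gene body, 68.5% by overlap, 50.3% with 2000 bp upstream without the gene body and 41.2% from 1000 bp upstream to 200 bp downstream. The 5 of 9 dod genes (55.6%) were thus below all genes in windows of 2000 bp or 1000 bp with the gene body and above them in windows without it. The genes themselves differed: without replicate 1 they were dod-6, dod-19 and dod-20, and without replicate 2 dod-3, dod-19, dod-20, dod-21 and dod-22. No dod gene had a region at a q-value up to 0.01, or a reproducible peak, under the alternatives run for these counts. For 1 replicate alone, the strongest 669 regions of its list stood in for the reproducible list, which measures no reproducibility. The limit of 0.05 was run for the pooled list and the reported window, and no dod gene passed it there, whereas in replicate 1 the region of dod-19 had a q-value of 0.033. A promoter TGATAAG was found in 8 genes with 1000 bp upstream, against 23.5% of all genes, and in 5 with 500 bp, against 14.96%. A region over an element was found at 3 genes without replicate 1, against 7.74% of all genes, at 4 without replicate 2, against 8.13%, and at 0 when pooled regions counted only at q-values up to 0.05, against 1.61%. At 3 genes an element lay within 100 bp of a pooled summit, against 5.50%. The median rank, 16595, ranged from 5527 to 19223 in the list of 1 replicate alone, and replicate 2 gave the lower value from 3 genes. Of 35 alternatives 31 gave values within 1.5 times the reported one, counting those where both were 0. Where the reported count was 0, a narrower window or a shorter list could only give 0 again. The tally compares counts, not the genes behind them. Depth is unknown.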

Other observations

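The elements of dod-21 and dod-24, 2 CUB-like genes on chromosome IV, share more sequence than any other pair in the set. Their bases agree over 16 positions that end with the element, aacacaaacTGATAAG with the element in capitals, and this run stands at 4 of the 8532 promoter elements of the genome. Another copy lies on chromosome IV before F55G11.4, the gene upstream of dod-17, close to its start and under a pooled region at rank 22583, and the last on X before F09F9.1. The base before TGATAAG was C in 5 of the 13 dod elements and in 22.3% of all promoter elements, and T in 5 of 13 and in 36.4%. These patterns were looked for after the sequences had been seen and were not tested.

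Around dod-21 and dod-24 the pooled list had no summit over 25127 bp, and 278 of 27700 stretches between summits in the genome were as long. In replicate 2 the stretch was 38210 bp, and 73 of 23234 were as long. In replicate 1, which had a region at dod-21, it was 13039 bp, and 1141 of 29002 were as long. The stretch around dod-21 and dod-24 was the longest found for any of the 9 genes in the pooled list. These counts are over stretches, and a gene falls more often in a long stretch than in a short one. They therefore do not give the share of genes in stretches as long, and nothing was tested. Whether reads map uniquely in this group of related genes was not tested.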
